A study of Mus musculus with 6 samples.

Results

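Transcripts of the bone morphogenetic protein (BMP) pathway were examined in ventricles of E11.5 mouse embryos. The genes are 5 ligands (Bmp2, Bmp4, Bmp5, Bmp7 and Bmp10), 3 Id genes (Id1, Id2 and Id3) and the inhibitory Smads Smad6 and Smad7. They were found by symbol: all probe sets that the platform annotation assigns to 1 of these 10 symbols alone were taken, which gave 17 of the 45101 probe sets on the array. The labels place 3 arrays in each genotype: embryos with a targeted deletion of skNAC, which died by E12.5 with heart defects, and wild-type littermates, all labelled strain 129SvEv. skNAC is the muscle-specific product of the Naca gene. No other allele or agent is named. Each array keeps the number of its title: 1, 26 and 66 for knockout, 13, 23 and 57 for wild-type, and values are always given in that order. The labels do not say whether an array held 1 heart or several, so the p-values rest on array-to-array spread that may be technical in part.

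BMPs are secreted ligands that join type I and type II serine/threonine kinase receptors, which phosphorylate Smad1, Smad5 and Smad9. These enter the nucleus with Smad4 and switch on target genes, among them the Id genes, whose products block basic helix-loop-helix transcription factors, and Smad6 and Smad7, which feed back to inhibit the receptors. In the embryonic heart Bmp2 and Bmp4 act in the atrioventricular canal and outflow tract, where endocardial cushions form, and Bmp10 is a ligand of trabecular muscle that sustains myocardial growth.

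Upstream sequences are shown for Smad6, Id2 and Id3, the BMP target genes of the group whose promoters are covered here. Each run holds the 250 bases before the gene start, from the RefSeq promoter table of build GRCm38.p6. Promoters of 6 of the 10 genes, found by symbol, are covered here, namely Bmp4, Bmp5, Bmp10, Id2, Id3 and Smad6. An upstream sequence of Smad7 is not reported here, and the counts of genes with a motif leave Smad7 out. Capitals mark 2 GC-rich motifs that BMP-activated Smads are known to bind, GGAGCC on either strand and the palindrome GGCGCC.
Smad6, chr9:64022060-64022309, minus strand: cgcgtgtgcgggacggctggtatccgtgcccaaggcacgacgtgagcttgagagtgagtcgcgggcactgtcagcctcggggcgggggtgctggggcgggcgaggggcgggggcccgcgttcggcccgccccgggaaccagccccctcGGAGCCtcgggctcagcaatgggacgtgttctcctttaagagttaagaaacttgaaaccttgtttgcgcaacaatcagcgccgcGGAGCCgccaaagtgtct
Id2, chr12:25096093-25096342, minus strand: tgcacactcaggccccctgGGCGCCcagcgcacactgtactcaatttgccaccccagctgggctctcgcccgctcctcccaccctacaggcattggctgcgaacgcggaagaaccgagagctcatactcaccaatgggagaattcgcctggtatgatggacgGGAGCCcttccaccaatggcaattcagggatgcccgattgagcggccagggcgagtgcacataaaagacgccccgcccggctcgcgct
Id3, chr4:136143572-136143821, plus strand: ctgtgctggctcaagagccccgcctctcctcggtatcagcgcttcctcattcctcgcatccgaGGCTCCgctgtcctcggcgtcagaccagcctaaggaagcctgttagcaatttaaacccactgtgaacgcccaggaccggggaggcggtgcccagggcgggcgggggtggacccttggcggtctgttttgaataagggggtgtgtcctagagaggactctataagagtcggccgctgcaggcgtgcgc
The motif GGAGCC, counted on both strands, was present in the upstream 250 bases of 4 of the 6 genes (Bmp4, Id2, Id3 and Smad6) and in 26.0% of all 32851 promoters of the table. It began 102 and 18 bases before the Smad6 start, 88 before the Id2 start and 187 before the Id3 start. The motif GGCGCC was found in Id2 alone among the 6, beginning 231 bases before the start, and in 9.59% of all promoters. The 4-base Smad box GTCT, on either strand, was in 6 of 6 and in 82.9% of all promoters. These are matches of letters in GC-rich stretches: GC content was 66.8% for Smad6, 62.8% for Id2 and 62.8% for Id3, against a median of 52.4%. Whether these motifs bear on the array signals was not tested.

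Signals are MAS5 intensities on a linear scale, in which each array was scaled to the same trimmed mean of 250. Array medians lay between 92.0 in knockout 1 and 113.9 in knockout 66. Knockout 66 stood apart on the first principal component of the log2 signals, which held 38.7% of the variance, at 55.9 against -24.7 to 4.79. The 3' to 5' signal ratio of actin, a measure of RNA integrity and labelling, was 2.49 to 2.57 in knockout and 2.05 to 2.24 in wild-type arrays, and that of Gapdh 1.28 to 1.45 against 1.12 to 1.20. Cardiomyocyte markers were bright in all arrays, with all 8 above the signal filter and a summed signal of 63918 to 69106 in knockout and 64018 to 69668 in wild-type. The brighter of the 2 Naca probe sets gave 8595 to 9047 in knockout and 8286 to 8566 in wild-type. It therefore did not mark the deletion, and the sources used here do not say whether it lies in the deleted part.

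No gene of the group passed the test of a difference between genotypes. In limma, 0 of the 17 probe sets passed an adjusted p of 0.05, and percent called was 0 among all 22518 probe sets above the signal filter. The filter was a mean signal over 6 arrays of 95.2, the median of all probe sets, and 14 of the 17 passed it. At an unadjusted p under 0.05 there was 1 of 17, where 4.81% of all filtered probe sets had such a p. Arrays of the genotypes did not overlap in 2 of 17, against 10.5% of all filtered probe sets. On the brightest probe set of each gene, 8 of the 10 genes lay below 0 in knockout and 2 above, with a median log2 difference of -0.16, beside 0.0023 and 49.6% below 0 over all 11661 genes. Differences given for single genes are knockout minus wild-type on the log2(intensity + 16) scale ± SE, which understates changes of dim probe sets. In a ventricle, fewer cells of a type and less RNA per cell cannot be told apart.

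**Figure D1:**
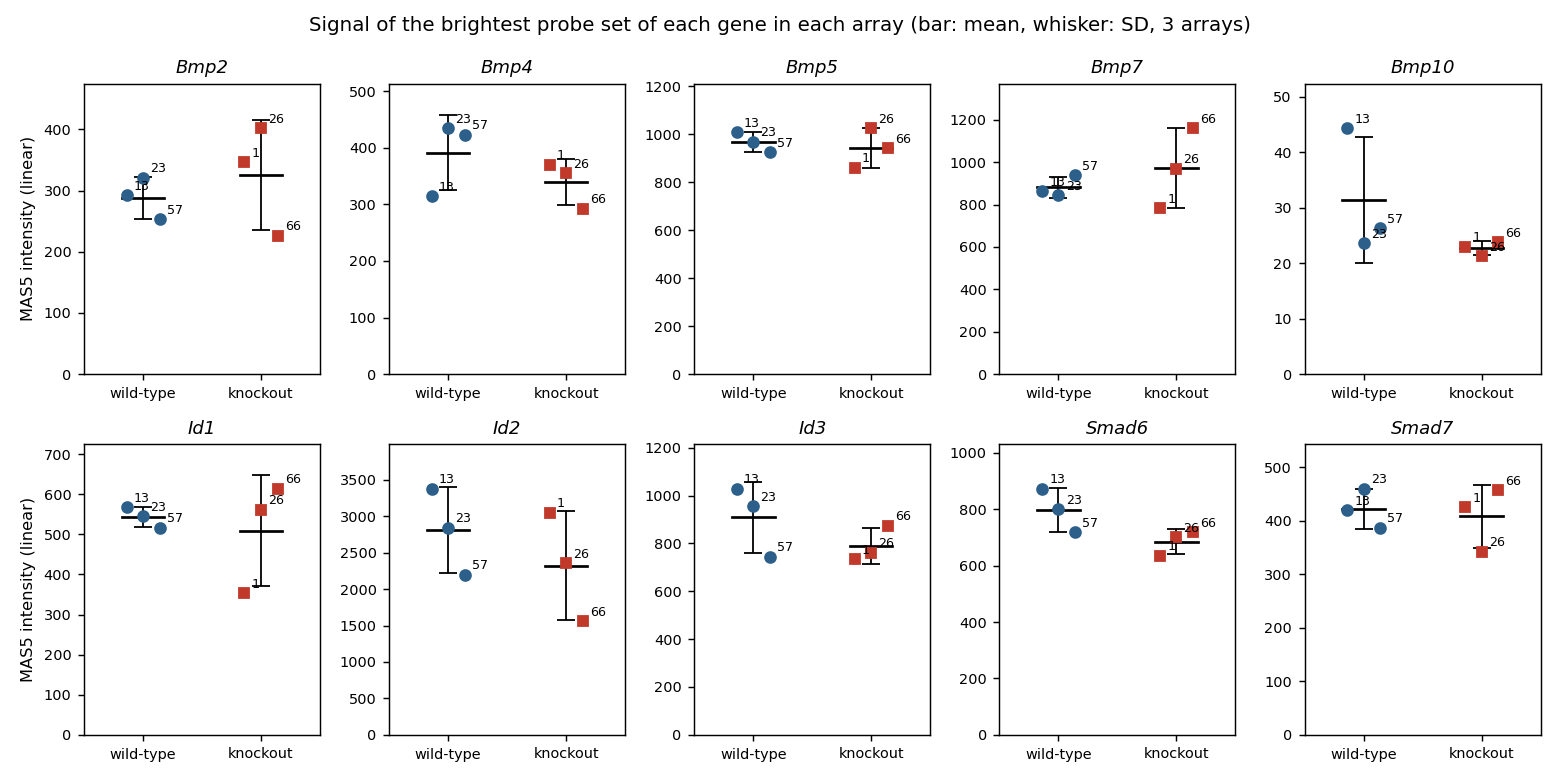
MAS5 intensity (linear scale, from 0) of the brightest probe set of each of the 10 genes in the 3 wild-type (circles) and 3 knockout arrays (squares), numbered by array, with mean and SD. Smad6 is the one gene whose knockout arrays (635 to 718) all lie below the wild-type arrays (719 to 873), by less than 1 unit of signal between the nearest arrays.

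Bmp2, a ligand that induces cushion formation, had 1 probe set (1423635_at). It gave 347 in knockout 1, 402 in knockout 26 and 227 in knockout 66, against 292, 321 and 253 in wild-type 13, 23 and 57. Knockout 66 was the lowest and knockout 26 the highest of all 6 arrays, so the knockout range enclosed the wild-type range. The difference in log2 signal was 0.13 ± 0.22, with a 95% interval from -0.34 to 0.61. It was 0.36 without knockout 66 and -0.032 without knockout 26.

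Bmp4, a ligand of the outflow tract, had 1 probe set (1422912_at). It read 370, 356 and 293 in the knockout arrays and 315, 435 and 423 in the wild-type arrays. The 2 highest values were wild-type, but wild-type 13 lay below knockout 1 and 26. The difference in log2 signal was -0.19 ± 0.18, with an interval from -0.58 to 0.20, and it lay between -0.33 and -0.091 under the 11 of 19 alternative settings that can move the estimate (the others alter only the test or the genes tested).

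Bmp5, a ligand of the myocardium, had 3 probe sets that did not point the same way. The brightest, 1455851_at, gave 861, 1027 and 942 across the knockout arrays against 1008, 970 and 927 across the wild-type arrays, a log2 difference of -0.04 ± 0.12 with an interval from -0.31 to 0.23. Its means, 943 ± 83.1 (SD, n = 3) in knockout and 968 ± 40.6 (SD, n = 3) in wild-type, differed by less than either SD. The second, 1421283_at, read 261, 348 and 189 against 279, 354 and 355, a difference of -0.32 ± 0.22. That value was -0.53 without knockout 26, -0.11 without knockout 66 and -0.080 with array quality weights. The third, 1421282_at, was below the signal filter, at 48.5, 90.9 and 190 against 33.3, 44.1 and 78.1, and gave 0.78 ± 0.49, with 0.35 without knockout 66 and 1.19 without knockout 1. Knockout 66 was the lowest array on the second probe set and the highest on the third.

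Bmp7, which acts beside Bmp5 in the developing heart, also had probe sets of both signs. The brightest, 1435479_at, gave 784, 970 and 1162 across the knockout arrays against 863, 845 and 938 across the wild-type arrays, a difference of 0.12 ± 0.15. Knockout 1 was the lowest and knockout 66 the highest of the 6 arrays, and the sign turned to -0.014 without knockout 66. The second, 1418910_at, read 185, 131 and 236 against 209, 252 and 217, a difference of -0.30 ± 0.23. Here knockout 26 was the lowest array: the difference was -0.10 without it, -0.49 without knockout 66 (unadjusted p in limma 0.0432, adjusted 0.653) and -0.58 with array quality weights (0.0101 and 0.288). The third, 1432410_a_at, was below the filter, at 35.7, 61.3 and 28.2 against 10.5, 75.1 and 16.6. Its difference was 0.39 ± 0.51, with an interval from -0.74 to 1.52. That value ran from 0.042 without wild-type 13 to 0.93 without wild-type 23. The mean of the kept Bmp7 probe sets gave -0.092, the opposite sign to the brightest.

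Bmp10 was represented by 1 dim probe set, 1421763_at. It gave 23.0 in knockout 1, 21.3 in knockout 26 and 23.8 in knockout 66, against 44.4, 23.6 and 26.3 in wild-type 13, 23 and 57. Between 19.3% and 30.7% of the array's probe sets were dimmer, so the probe set stayed below the filter in both genotypes. In the fit without a filter its difference was -0.27 ± 0.33, with an interval from -1.01 to 0.48, and it was -0.081 without wild-type 13, the highest array. Other genes of trabecular myocardium were bright in the same arrays: Nppa, the gene of atrial natriuretic peptide, read 11318 to 12927 in knockout and 10406 to 12841 in wild-type. The connexin gene Gja5 was also dim, at 3.1 to 9.6. No detection calls were used, so a weak probe and a low transcript cannot be told apart for Bmp10.

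Id1, a classical BMP target, had 1 probe set (1425895_a_at; probe sets ending in _a_at read several transcripts of 1 gene). It gave 353 in knockout 1, 561 in knockout 26 and 614 in knockout 66, against 567, 545 and 517 in wild-type 13, 23 and 57. The wild-type arrays were close together, at 543 ± 25.2 (SD, n = 3), and the knockout arrays were not, at 509 ± 138 (SD, n = 3). Knockout 1 lay below every other array and knockout 66 above every other. The log2 difference of -0.13 ± 0.19 became 0.11 without knockout 1.

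Id2 had 3 probe sets, all above the filter. The brightest, 1435176_a_at, gave 3048 in knockout 1, 2356 in knockout 26 and 1557 in knockout 66, against 3378, 2844 and 2198 in wild-type 13, 23 and 57. Each genotype spanned a wide range and the ranges overlapped. In both genotypes the array with the lowest median signal had the highest Id2 value and the array with the highest median the lowest. The array medians were 92.0, 99.0 and 113.9 for knockout 1, 26 and 66, and 95, 101.3 and 111.3 for the wild-type arrays. Their part in the Id2 values was not tested. The difference in log2 signal was -0.30 ± 0.22, with an interval from -0.79 to 0.18. It was -0.34 after quantile normalization, -0.29 after centring on array medians, -0.044 without knockout 66 and -0.53 without knockout 1. The other Id2 probe sets gave -0.085 ± 0.17 (1422537_a_at, 705 to 857 in knockout and 622 to 981 in wild-type) and -0.11 ± 0.25 (1453596_at, 101 to 116 and 100.1 to 124). Over the alternatives the former ran from -0.27 to 0.054 and the latter from -0.20 to -0.010.

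Id3 had 1 probe set (1416630_at), which read 733, 762 and 874 in the knockout arrays and 1029, 956 and 744 in the wild-type arrays. The 2 highest arrays were wild-type 13 and 23, while wild-type 57 lay among the knockout arrays. The difference in log2 signal was -0.19 ± 0.15, with an interval from -0.52 to 0.14, and it lay between -0.33 and -0.098 under the 11 alternatives that can move it. All 5 probe sets of Id1, Id2 and Id3 were thus below 0, 3 of them from Id2, and 0 of them passed the test. Id4, outside the group and named after its values were seen, gave 0.063 ± 0.19 on its brightest probe set. Its 2 other kept probe sets gave -0.28 and 0.0016. The mean deviation of Id1, Id2 and Id3 from their 6-array average was -0.15, -0.037 and -0.13 across the knockout arrays against 0.28, 0.15 and -0.12 across the wild-type arrays. Wild-type 57 thus lay among the knockout arrays here too.

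Smad6, the inhibitory Smad most selective for BMP receptors, had 1 probe set (1422771_at). It gave 634.6 in knockout 1, 701 in knockout 26 and 717.8 in knockout 66, against 872.5, 800.2 and 718.6 in wild-type 13, 23 and 57. Every knockout value was under the lowest wild-type value, but knockout 66 and wild-type 57 were nearly equal. The means were 685 ± 44.0 (SD, n = 3) and 797 ± 77.0 (SD, n = 3), a knockout to wild-type ratio of 0.859. The difference in log2 signal was -0.21 ± 0.13, with an interval from -0.50 to 0.075. In limma this gave an unadjusted p of 0.132 and, over all genes, an adjusted p of 0.974. The two-sided exact permutation test over 20 assignments gave 0.1, the smallest value that 3 against 3 arrays allow. Any probe set without overlap gets this value, so the test adds nothing to the arrangement of the arrays. In the same test the dimmer Smad7 probe set also gave 0.1, and the remaining probe sets of the group gave 0.2 to 0.9. All knockout arrays were lower in 5.55% of all filtered probe sets. The difference ranged from -0.28 to -0.15 over the 11 alternatives that can move it.

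Smad7, which inhibits receptors of both the BMP and TGF-beta branches, had 2 probe sets that differed in size of effect. The brighter, 1423389_at, gave 426, 343 and 457 across the knockout arrays against 420, 460 and 387 across the wild-type arrays, with overlapping ranges and a difference of -0.05 ± 0.16. The dimmer, 1443771_x_at, gave 197 in knockout 1, 139 in knockout 26 and 103 in knockout 66, against 289, 246 and 216 in wild-type 13, 23 and 57, so that no knockout array reached the lowest wild-type array. Its means were 146 ± 47.5 (SD, n = 3) and 250.2 ± 36.9 (SD, n = 3), and its log2 difference was -0.75 ± 0.24, with an interval from -1.29 to -0.21. It was the 1 probe set of the 17 whose interval lay wholly on one side of 0. In limma the unadjusted p was 0.0109, the p adjusted over all probe sets was 0.975, and it did not pass. Probe sets ending in _x_at hold probes that also match other transcripts, and the annotation gives no accession for this one. Over the 11 alternatives that can move it, its difference lay between -0.96 and -0.54. Over all 18 that gave this probe set a value, the unadjusted p in limma was 0.00221 to 0.0508 and the adjusted p 0.204 to 1. It fell below the filter at the 70th percentile, where its value came from the fit without a filter. The mean of both Smad7 probe sets gave -0.40, with an unadjusted p in limma of 0.0274 and an adjusted p of 0.966.

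Summed signals of some marker lists also separated the genotypes, although 0 markers in any list passed the test. Markers of cushion, outflow tract and neural crest, all 9 above the filter, summed to 4154 to 5251 in knockout and 5304 to 5890 in wild-type. Their mean log2 deviations were -0.21 to -0.084 in knockout and 0.11 to 0.23 in wild-type. Of these 9, 7 were below 0 in knockout, none of them at 0 signal and 0 of them passing the test. Over all genes 49.6% were below 0. An unadjusted p under 0.05 in limma was reached by 3 of the 9 (Snai2, Postn and Sema3c), against 4.69% of all genes. The marker lists were chosen with earlier results of these data known, so these shares cannot serve as a test of them. The Snai2 value came from a probe set ending in _x_at. Postn in knockout 66 (1551) lay within the wild-type range (1415 to 1645). The 4 ventricular markers summed to 22591 to 27448 in knockout and 20454 to 21754 in wild-type, while their mean log2 deviations overlapped. Most of that sum was Myl2, at 20443 to 25534 in knockout and 18174 to 19160 in wild-type. Of the 4, 2 were above 0 (Myl2 and Mycn) and 2 below (Hey2 and Irx4). The 9 foregut and liver markers, of which 2 passed the filter, summed to 875 to 1037 over all 9 in knockout and to 769 to 856 in wild-type. Mean log2 deviations of the 2 that passed overlapped, at -0.52 to 0.175 in knockout and 0.015 to 0.23 in wild-type. Those 2 differed in sign, with Epcam at 0.096 and Nkx2-1 at -0.68. For the 8 epicardial markers the sums overlapped, at 4943 to 5563 and 4733 to 5140, and the deviations did not, at 0.037 to 0.061 and -0.086 to -0.014. Of these 8, 4 were above 0 and 4 below, with Krt8 the highest at 0.80 and a median of 0.025. The 8 endocardial and endothelial markers overlapped on both measures, with sums of 4407 to 4644 and 4334 to 4595. So did the lists for cardiomyocytes, atrium, trabecular myocardium and blood. The actin and Gapdh ratios given above also separated the genotypes. The part of these differences in the Smad6 and Smad7 values was not tested.

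**Figure D2:**
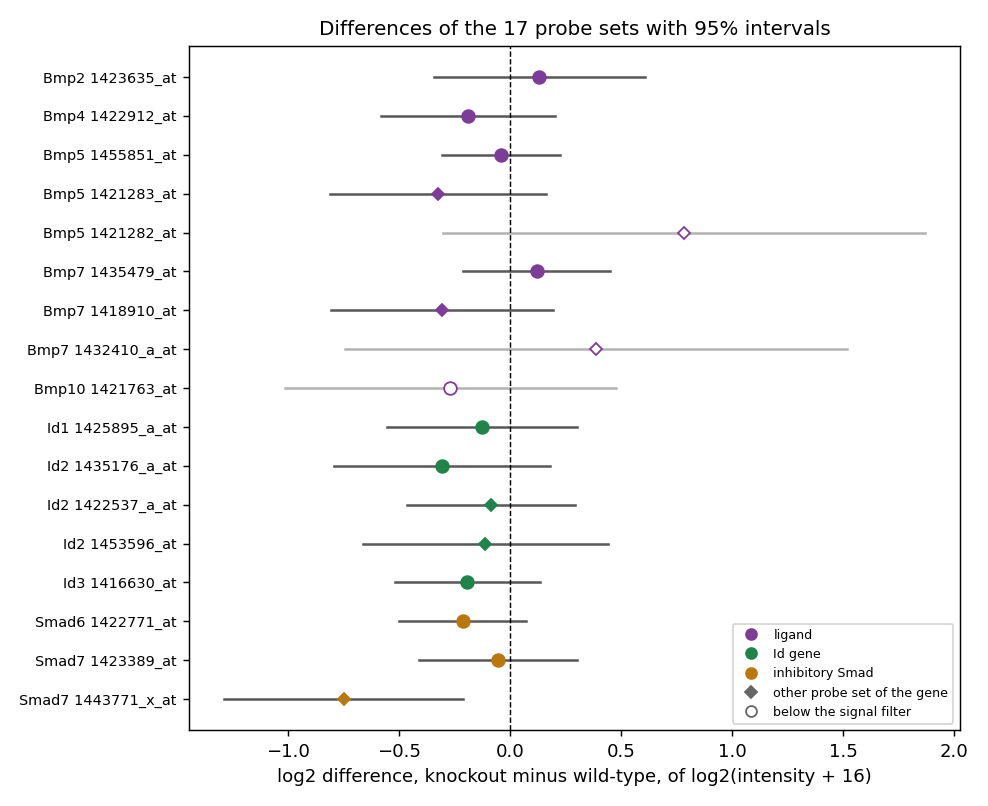
Log2 difference, knockout minus wild-type, of all 17 probe sets with 95% intervals from limma (filled: above the signal filter; open: below it; circles: brightest probe set of a gene; diamonds: other probe sets). The dimmer Smad7 probe set, at -0.75, is the one interval that does not include 0, and Bmp5 and Bmp7 each have probe sets on both sides of 0.

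The intervals differed between genes and between probe sets of the same gene. Each is for a single probe set and is not adjusted for the number tested. For Bmp5 it ran from -0.31 to 0.23 on the brightest probe set. On the other Bmp5 probe sets it ran from -0.81 to 0.16 and from -0.30 to 1.87. For Smad7 it ran from -0.41 to 0.30 on the brighter probe set and from -1.29 to -0.21 on the dimmer one. The dimmer one did not pass the test (adjusted p in limma 0.975), so a difference of 0 also remains possible there. For Bmp7 it ran from -0.21 to 0.45 on the brightest probe set. On the other Bmp7 probe sets it ran from -0.81 to 0.20 and from -0.74 to 1.52. For Id1 it ran from -0.55 to 0.30. The standard errors of the 10 brightest probe sets lay between 0.12 for Bmp5 and 0.33 for Bmp10, beside a median of 0.19 over all genes. Of the 19 alternatives, 11 or 12 can move a gene's estimate. None of these turned its sign in 5 of the 10 genes (Bmp4, Bmp10, Id2, Id3 and Smad6), and at least 1 did in the other 5.

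**Figure D3:**
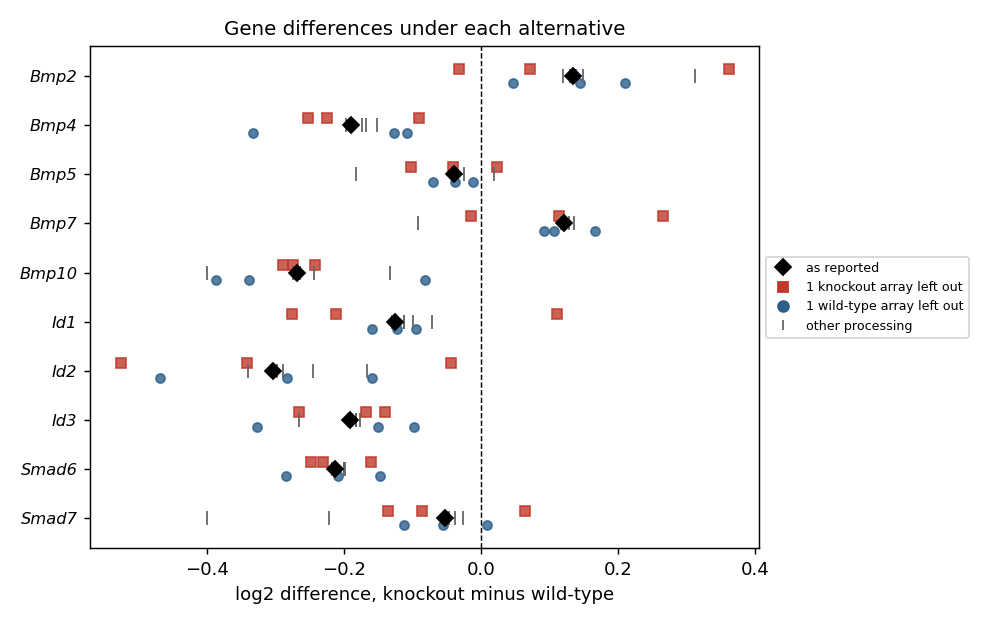
Log2 difference of each of the 10 genes as reported (black diamonds), with 1 knockout array (red squares) or 1 wild-type array (blue circles) left out, and under other processing (grey ticks). Bmp2, Bmp5, Bmp7, Id1 and Smad7 cross 0, and Id2 ranges from -0.53 to -0.044.

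The arrays were also compared for the rest of the pathway, in 6 lists of 56 genes in all. Of these, 52 had a probe set and 35 passed the signal filter. In limma 0 of the 35 passed an adjusted p of 0.05 (percent called 0 of 11661 genes), and 1 had an unadjusted p under 0.05, against 4.69% of all genes. Arrays of the genotypes did not overlap in 3 of the 35, against 10.9% of all genes. There were 20 below 0 and 15 above, with a median of -0.02. After quantile normalization or centring on array medians there were 19 below and 16 above. The balance turned to 17 below and 18 above without knockout 1, and it was 25 and 11 without wild-type 13 and 23 and 12 with the mean of the kept probe sets.

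Among other ligands, 1 of 8 passed the filter, Gdf2, a ligand of endothelial cells (128 ± 45.4 in knockout and 140.5 ± 42.7 in wild-type, SD, n = 3). Its difference was -0.13 ± 0.31. Bmp8a and Bmp8b were dim, with group means of 67.5 and 47.3 and of 25.8 and 17.2. Of 12 receptors and co-receptors, 9 passed the filter, 5 above 0 and 4 below on their brightest probe sets. Other kept probe sets had the opposite sign for Bmpr1a (3 of 4), Rgmb (1 of 3), Bmpr2, Tgfbr3 and Eng. The 2 others of Acvr1 had the same sign as its brightest. Bambi, a decoy receptor that BMP signalling induces, gave 1087, 1123 and 844 across the knockout arrays against 1199, 1264 and 1090 across the wild-type arrays, a difference of -0.22 ± 0.14 in which the ranges overlapped between knockout 26 and wild-type 57. Endoglin (Eng), an endothelial co-receptor, gave -0.22 ± 0.15 on its brightest probe set and 0.26 on another. Acvrl1, an endothelial type I receptor, was below the filter, at 61.7 to 170.5 in knockout and 30.6 to 105.9 in wild-type, and gave 0.83 ± 0.48.

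Of the 4 signal-transducing Smads, 3 passed the filter. All 3 were below 0 on their brightest probe sets, with intervals that included 0. Smad4, the partner shared by all branches, read 1667, 1651 and 1446 against 1844, 1807 and 1652, a difference of -0.15 ± 0.11, with its 2 further kept probe sets also negative. Smad1 gave -0.02 ± 0.16 on its brightest probe set and 0.19 on another. Smad9 was below the filter (33.2 ± 24.1 and 41.3 ± 22.4, SD, n = 3). Smad5, named after its values were seen, turned from -0.018 to 0.018 after quantile normalization. Its 2 other kept probe sets gave -0.245 and 0.215.

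Intracellular repressors and ubiquitin ligases held the 1 pathway gene with an unadjusted p under 0.05. Tob2, an antiproliferative protein whose relative Tob1 is known to restrain BMP Smads, gave 820, 740 and 911 across the knockout arrays against 1181, 1140 and 1294 across the wild-type arrays, with no overlap. Its difference was -0.54 ± 0.13, and its adjusted p in limma over all genes was 0.797. That value came from a probe set ending in _x_at, and its 2 other kept probe sets gave -0.20 and -0.11. Smurf2, a ubiquitin ligase of the pathway, gave 0.26 ± 0.14, with its 2 other kept probe sets at 0.025 and 0.064, and Tob1 gave -0.24 ± 0.19.

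Of 14 extracellular antagonists and modulators, 13 had a probe set and 6 passed the filter, 3 above 0 and 3 below. Fstl1, a secreted follistatin-like protein, gave 4449, 4348 and 4658 across the knockout arrays against 5126, 4990 and 4747 across the wild-type arrays. The genotypes did not overlap, and the difference was -0.14 ± 0.09 with an adjusted p in limma of 0.974. Bmp1, a protease that processes procollagen and frees BMPs from chordin, gave -0.37 ± 0.23, and the antagonist gene Fst -0.24 ± 0.27.

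Of 12 further genes known to respond to BMP or to Bmp10 in heart, 10 passed the filter. On their brightest probe sets 6 were above 0 and 4 below. At least 1 other kept probe set had the opposite sign for Id4, Msx2, Tbx3 and Mef2c, while the 2 others of Tbx20 had the same sign. Cdkn1c, a cell cycle inhibitor known to increase in hearts without Bmp10, gave 8948, 9056 and 9527 across the knockout arrays against 8306, 8543 and 7970 across the wild-type arrays. All knockout arrays were above all wild-type arrays, where 4.97% of all filtered probe sets are so arranged. Its difference was 0.15 ± 0.08 with an adjusted p in limma of 0.974, and it was 0.055 after quantile normalization. Tbx2, a transcription factor of the atrioventricular canal, was below the filter, at 77.4, 118 and 84.0 against 58.6, 49.5 and 65.8, also without overlap, and gave 0.55 ± 0.35. Msx2, a homeobox target of BMP, gave 0.32 ± 0.26, with another kept probe set at -0.12.

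**Figure D4:**
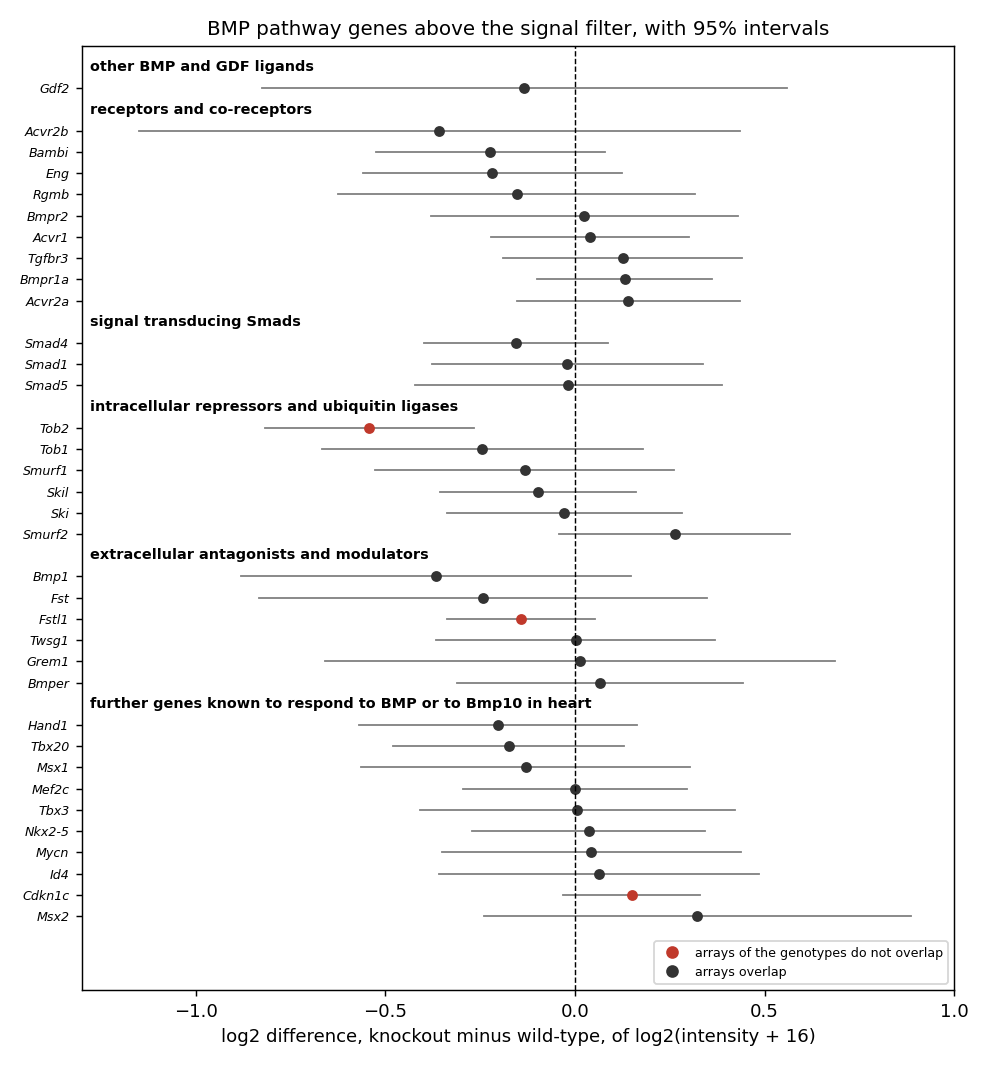
Log2 difference, knockout minus wild-type, with 95% intervals from limma for the 35 further BMP pathway genes above the signal filter, by list (red: arrays of the genotypes do not overlap). Tob2, Fstl1 and Cdkn1c are the 3 genes without overlap, at -0.54, -0.14 and 0.15.

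The genes with the signal pattern most like that of Id1 over the 6 arrays were Ephx3, Ptgr2 and Rnf207, by Pearson correlation of log2 signals among 11661 genes. The coefficients over 6 arrays were 0.987, 0.986 and 0.985, and Spearman's rho was 0.771, 0.829 and 0.829. Each was lowest in knockout 1, as Id1 was, and without that array the coefficients were 0.915, 0.867 and 0.818. With 6 arrays 152 genes exceeded 0.9, so a value of this size sets no gene apart. Bmp10 had no probe set above the filter and was not compared in this way.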

How the data were processed

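Ventricle RNA (500 ng of total RNA per sample, E11.5) was amplified, labelled with biotin and put on 6 Affymetrix arrays, per the labels. The deposited file holds 1 intensity per probe set and array, on a linear scale, which the authors computed with GCOS and MAS5 (named in the submitters' processing notes). Software versions and settings were not given in the sources used here, and no detection calls were used. Scaling each array to one mean hides a change in total RNA per cell. Precision is set by having 3 arrays per genotype.

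Values were taken as log2(intensity + 16). Of 45037 non-control probe sets, 22518 had a mean log2 signal above the median and were tested in limma 3.58.1 (R 4.3.3): lmFit, eBayes with trend, two-sided p-values, Benjamini-Hochberg adjustment and calls at 0.05. The brightest kept probe set with a single symbol stood for its gene. Probe sets below the filter take their values from a fit without it. The code was tested on simulated data. All 10 genes matched RefSeq by Entrez identifier. Named pathway genes are the 3 of smallest p per list, and Smad5 and Id4. Genes and lists were chosen with earlier results of these data known. Plots used Matplotlib 3.10.9 (Python 3.11.15).

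Alternatives changed the pseudocount (1 or 64), the filter (none, or the 70th percentile), the scaling (quantile normalization or median centring), eBayes (no trend, or robust), the array weights, the probe sets used (none ending in _x_at or _s_at, or averages per gene) and the threshold (0.1), or left out each array in turn. A filter on the arithmetic mean was added after seeing the data.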

Additional observations from a re-analysis of the deposited data

How the results depend on the processing

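No paired analysis was possible because the genotypes share no number in the labels. Under 19 alternatives 0 of the 10 genes and 0 of the pathway genes were called. One of them, a filter on the arithmetic mean signal (threshold 100.3), was run first, replaced by the filter on log2 means, and added to the alternatives after seeing the data. It left 11648 genes, called 0 probe sets, and had 1091 at an unadjusted p under 0.05 against 1083. The differences of Bmp4, Bmp10, Id2, Id3 and Smad6 kept their sign under the 11 or 12 alternatives that can move them. Bmp5 turned to 0.020 with array quality weights and Bmp7 to -0.092 with the mean of its kept probe sets. With 1 array left out, Bmp2 ranged from -0.032 (without knockout 26) to 0.36, Bmp5 from -0.10 to 0.023 (without knockout 1), Bmp7 from -0.014 (without knockout 66) to 0.26, Id1 from -0.27 to 0.11 (without knockout 1), and Smad7 from -0.14 to 0.064 (without knockout 26), with 0.0086 without wild-type 23. The mean of the kept Smad7 probe sets gave -0.40. The causes were not tested. Genes below 0 numbered 6 to 9 of the 10 over the alternatives, 6 of them without knockout 1. Without a filter 28 pathway genes were above 0 and 24 below, since 52 were then counted. Over the whole table, array quality weights called 6 probe sets and 8 genes, and leaving out 1 array called 0 to 2 probe sets and 0 to 2 genes (2 of each without knockout 1, 1 gene without knockout 66). Bmp10 and 2 of the other probe sets lay below the filter, where signal over background limits what a difference can show.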
